A study of Mus musculus with 4 samples.

Results

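Semaphorins, plexins, ephrins, Eph receptors, Slits, Robos, netrins and Unc5 receptors are the classical guidance cues of axons and vessels, and 62 of the 15424 genes in the deposited table of subcutaneous mouse tumors belong to them by symbol. The symbols had to begin with Sema3 to Sema7, Plxn, Epha, Ephb, Efna, Efnb, Ntn or Unc5 followed by the member's number or letter, or to be Robo1 to Robo3 or Slit1 to Slit3. The symbols themselves carry no measured value, but the gene group was picked with earlier results of these data known. It took 20 semaphorins, 8 plexins, 12 Eph receptors, 8 ephrins, 6 Slits and Robos, and 8 netrins and Unc5-named genes. Unc50 enters through its symbol only: it encodes a membrane protein of the Golgi and nuclear envelope and is no netrin receptor. Without it the counts of 2-fold differences given below were the same, and the median over the remaining 37 genes was -0.13.

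The tumors grew in nude mice, which lack mature T cells but keep other immune cells, vessels and stroma. The transplanted R728T1 cells are described in the labels as non-SMCs from a mouse model of Rb and P53, so every tumor shares that origin and cell line. Small cell lung cancer is their entry for cell type. One group, shLuc, carried a control shRNA against luciferase (spelled shLuciferace in the labels) and the other, shTaz, an shRNA against Taz. The labels list 2 samples per group, with no age, number of animals or shRNA sequence, and the values used here are 1 FPKM column per group, read here as a value for that group. It is not stated whether a column averages both libraries, pools them or shows 1 of them. There is therefore no replicate spread, no test and no error for any difference below, and sequencing depth is unknown. FPKM scales fragment counts by the length of the transcript and the size of the library, so levels can be set side by side between genes. Paired values below give shLuc first and shTaz second.

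Class 3 semaphorins are secreted and act through neuropilins together with class A plexins or plexin D1, while class 4 to 7 semaphorins are mostly membrane-bound and bind plexins directly. Ephrins and Eph receptors are both on cell surfaces and signal at contacts between neighbouring cells, in both directions. Netrins bind DCC, neogenin and Unc5 receptors, and Slits bind Robos. Outside the nervous system these cues act on cell adhesion, on the patterning of vessels and on tumor cell migration.

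Of the 62 genes, 38 reached a mean of 1 FPKM over both columns and were given a difference, log2((shTaz FPKM + 1) / (shLuc FPKM + 1)). A difference of at least 1 in either direction is called 2-fold. Only Sema3e was 2-fold higher in the shTaz column, which is 2.63% of the 38 genes against 3.96% of all 11650 genes at this level. Efnb1, Sema6c and Plxnb1 were 2-fold lower, which is 7.89% of the 38 genes against 3.25% of all genes. Their Entrez identifiers in the table are 20349 for Sema3e, 13641 for Efnb1, 20360 for Sema6c and 235611 for Plxnb1. The higher share was thus near that of all genes, and the lower share rests on 3 genes. The median of the 38 differences was -0.13 and that of all genes 0.12. The targeted gene Wwtr1, which encodes TAZ, was at 23.4 FPKM in shLuc against 15.1 FPKM in shTaz. Its log2 difference of -0.60 was short of 2-fold, and 9.36% of all genes were as low or lower.

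Differences in these columns followed base composition: GC-rich transcripts tended to be lower and AT-rich ones higher in the shTaz column. Many of the differences are therefore also given after removal of the trends with GC content and transcript length over all genes. None of the 38 members was then 2-fold higher, against 1.72% of 11066 genes, and none 2-fold lower, against 2.75%. The extremes were -0.94 for Efnb1 and 0.68 for Sema3e. Wwtr1 was at -1.08 with the trends removed, past the 2-fold limit.

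The region before the start of each of the 4 genes with a 2-fold difference is shown because the TAZ protein acts on genes through TEAD factors. Each stretch is the 250 bases upstream of the RefSeq start in GRCm38.p6 (mm10), written 5′ to 3′ on the gene's strand. Capitals mark matches to the TEAD core GGAATG or its reverse complement CATTCC, or to the AP-1 motif TGANTCA. For Sema6c the first of 2 listed starts is shown.
Sema3e, chr5:14025026-14025275, plus strand: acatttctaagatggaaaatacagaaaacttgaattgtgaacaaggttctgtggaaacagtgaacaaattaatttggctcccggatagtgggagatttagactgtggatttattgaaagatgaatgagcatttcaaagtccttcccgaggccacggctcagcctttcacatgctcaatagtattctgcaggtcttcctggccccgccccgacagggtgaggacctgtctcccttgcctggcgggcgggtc
Efnb1, chrX:99135811-99136060, plus strand: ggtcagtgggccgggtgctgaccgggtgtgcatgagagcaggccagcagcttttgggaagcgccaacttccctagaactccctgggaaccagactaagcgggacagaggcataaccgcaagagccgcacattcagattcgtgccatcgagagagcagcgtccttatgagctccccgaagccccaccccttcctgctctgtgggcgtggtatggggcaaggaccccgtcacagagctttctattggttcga
Plxnb1, chr9:109095186-109095435, plus strand: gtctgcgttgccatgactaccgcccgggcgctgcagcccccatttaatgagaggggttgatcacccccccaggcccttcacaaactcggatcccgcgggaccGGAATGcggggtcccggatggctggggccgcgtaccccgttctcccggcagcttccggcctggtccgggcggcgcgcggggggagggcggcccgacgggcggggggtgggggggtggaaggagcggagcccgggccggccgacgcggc
Sema6c, chr3:95160170-95160419, plus strand: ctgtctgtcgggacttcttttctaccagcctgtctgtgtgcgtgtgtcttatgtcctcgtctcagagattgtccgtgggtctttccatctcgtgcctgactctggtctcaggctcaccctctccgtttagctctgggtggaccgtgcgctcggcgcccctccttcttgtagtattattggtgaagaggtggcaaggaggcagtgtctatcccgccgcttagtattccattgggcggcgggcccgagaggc

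Plxnb1 held the only match among these stretches, a GGAATG beginning 148 bases upstream of the start. RefSeq windows were found for 34 of the 38 genes, 46 windows in all, and 6 of them (13.04%) held a TEAD core on either strand. Of all 32851 windows of the same length 12.6% did so. The AP-1 motif, which reads the same on both strands, was in 3 of the 46 windows (6.52%) and in 6.75% of all windows. The 46 windows had a median GC content of 64.4%, against 52.4% for all windows, and the shares were not adjusted for this. The windows of Epha2, which held a pair of matches, and of Efnb2, Ntn3, Plxnd1 and Sema4a also held a TEAD core. The upstream stretch of Sema3e was 48.0% GC with 7 CpG dinucleotides and that of Plxnb1 75.2% GC with 30. A match describes the letters only, and no binding was measured.

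**Figure D1:**
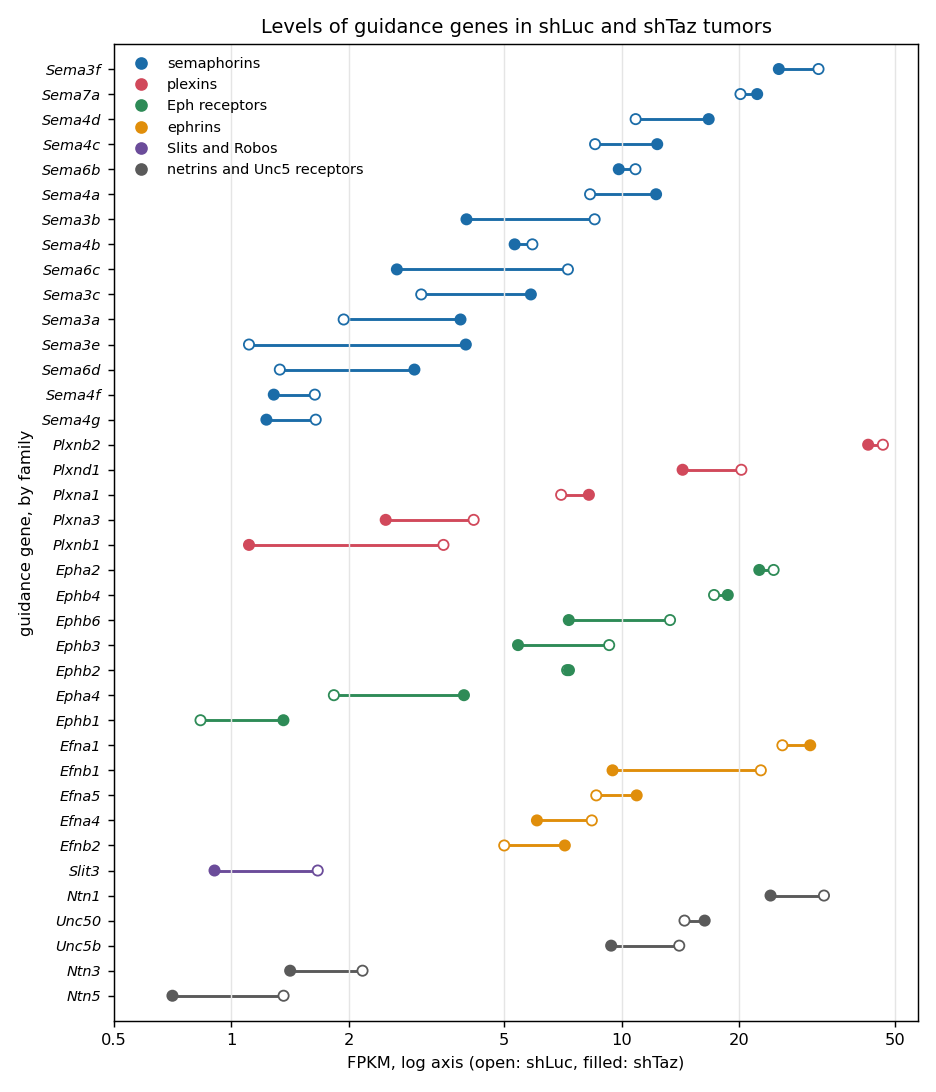
FPKM of the 38 guidance genes whose mean reached 1 FPKM, on a log axis, grouped by family; open circles are the shLuc column and filled circles the shTaz column. Sema3e has the widest gap to the right (1.11 to 3.99 FPKM), and Plxnb1, Sema6c and Efnb1 have the widest gaps to the left.

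The 5 secreted class 3 semaphorins with a difference were split, with 3 above 0 and 2 below. Sema3e, a ligand that binds plexin D1 without needing a neuropilin, was at 1.11 FPKM in shLuc against 3.99 FPKM in shTaz, a log2 difference of 1.24 that 1.55% of all genes reached or passed. Sema3a, the founding repellent of the family, was at 1.94 and 3.87 FPKM (0.73). Sema3c, a ligand for neuropilins and plexin D1, was at 3.07 and 5.85 FPKM (0.75). Each of these 3 genes had the higher value in the shTaz column. Sema3b, a class 3 gene known as a candidate tumor suppressor in lung cancer, was at 8.53 and 4.005 FPKM, a difference of -0.93 that lay just short of 2-fold. Sema3f, a neuropilin-2 ligand and the semaphorin with the highest mean, was at 31.9 and 25.3 FPKM (-0.33).

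The 3 higher genes lie on chromosome 5 in mm10, with Sema3a at chr5:13125414-13602565, Sema3e at chr5:14025276-14256689 and Sema3c at chr5:17574281-17730268, all on the plus strand. Sema3d, at chr5:12383385-12588948, begins this stretch of 5.35 Mb, and its value was lower in the shTaz column, unlike those of its 3 neighbours. It was at 0.199 and 0.104 FPKM, far under the limit on the mean. The pair with lower shTaz values lies on chromosome 9, Sema3b at chr9:107597674-107609229 and Sema3f at chr9:107681500-107710475, within 113 kb on the minus strand. The longest transcripts of the chromosome 5 genes were 39.2% to 42.7% GC, and those of Sema3b and Sema3f 56.5% and 58.4%. With the trends removed the differences of Sema3a and Sema3c shrank to 0.13 and 0.21, that of Sema3e to 0.68, and that of Sema3f to -0.09, while Sema3b kept most of its difference (-0.80). Sema3g, on chromosome 14, was at 1.03 and 0.867 FPKM and under the limit on the mean.

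Class 4 semaphorins are transmembrane proteins, several of them ligands of B-type plexins. Sema4d, a ligand of plexin B1 that is abundant on leukocytes, was at 10.9 FPKM in shLuc against 16.7 FPKM in shTaz, a log2 difference of 0.58. Sema4a was at 8.30 and 12.2 FPKM (0.51) and Sema4c, a plexin B2 ligand, at 8.55 and 12.3 FPKM (0.48). None was 2-fold different. Unlike the chromosome 5 genes, these 3 had transcripts of 53.4% to 57.1% GC, and removal of the trends left them at 0.53, 0.65 and 0.63. At that setting 8.86%, 5.73% and 6.06% of all genes lay as high or higher, beside 5.11% for Sema3e. The other class 4 genes, Sema4b, Sema4f and Sema4g, had differences from -0.25 to -0.13, and from -0.094 to -0.0098 with the trends removed.

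Class 5 to 7 semaphorins had members at both ends. Sema6c, a transmembrane semaphorin of class 6, was at 7.28 FPKM in shLuc and 2.66 FPKM in shTaz, a log2 difference of -1.18 that 2.31% of all genes reached or passed on the lower side. Sema6d, a class 6 ligand of plexin A1, was at 1.33 and 2.95 FPKM (0.76), and Sema6b at 10.8 and 9.83 FPKM (-0.13). Class 6 was therefore not uniform, with its widest gap between Sema6c and Sema6d. Sema6c lies at chr3:95160457-95174024 on the plus strand of mm10. With the trends removed Sema6c was at -0.87, Sema6d at 0.46 and Sema6b, the most GC-rich of the 38 transcripts at 63.5%, at 0.29. Sema7a, a GPI-anchored semaphorin that binds integrin beta-1 and plexin C1, was at 20.1 and 22.2 FPKM (0.14, or 0.34 with the trends removed). Over all 15 semaphorins with a difference 8 were above 0 and 7 below, with a median of 0.14.

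Plexins, the receptors, were mostly lower in the shTaz column. Of 5 with a difference 4 were below the median of all genes, and the median was -0.47, or -0.19 with the trends removed. Plxnb1, the receptor of Sema4d, was at 3.50 FPKM in shLuc against 1.11 FPKM in shTaz (log2 difference -1.09, and -0.93 with the trends removed), and lies at chr9:109095389-109119917 on the plus strand. Plxnb2, the receptor of Sema4c and the most abundant of the 62 genes, was at 46.7 and 42.8 FPKM (-0.12). Plxnd1, the endothelial receptor of Sema3e, was at 20.3 and 14.3 FPKM (-0.47, or -0.19 with the trends removed). Plxna3 was at 4.18 and 2.49 FPKM (-0.57), and Plxna1 was the exception with 6.998 and 8.24 FPKM (0.21, or 0.36 with the trends removed).

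Of 8 known ligand and receptor pairs, 5 had differences of opposite sign and 3 of the same sign. With the trends removed the counts were 4 and 4. The pairs were chosen with their values in view, so these counts say nothing about ligand and receptor genes in general. Plxnd1 was counted with both Sema3c and Sema3e, and Efnb1 and Sema6c were in no pair. The pairs of opposite sign were Sema3c and Sema3e with Plxnd1, Sema4c with Plxnb2, Sema4d with Plxnb1, and Efna1 with Epha2. Those of the same sign were Sema6d with Plxna1, Efnb2 with Ephb4, and Ntn1 with Unc5b. Even in the shTaz column Plxnd1 was above Sema3e (14.3 against 3.99 FPKM), and Plxnb1 was below Plxnb2 (1.11 against 42.8 FPKM). The neuropilin genes, whose products are coreceptors of class 3 semaphorins, were nearly equal between the columns, Nrp1 at 20.7 and 21.9 FPKM and Nrp2 at 44.7 and 46.95 FPKM. In bulk tumors fewer cells of a type and less RNA per cell cannot be told apart.

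Among ephrins the B-type ligand Efnb1 stood apart. Efnb1, a transmembrane ligand of EphB receptors, was at 22.7 FPKM in shLuc against 9.48 FPKM in shTaz, a log2 difference of -1.18, and lies at chrX:99136130-99148991 on the plus strand. Removal of the trends left it at -0.94, the lowest of the 38 genes, and 3.10% of all genes were as low or lower. Its paralog Efnb2, an arterial endothelial ligand of EphB4, was at 5.003 and 7.15 FPKM (0.44, or 0.24 with the trends removed). Of the GPI-anchored A-type ephrins, Efna1, the main ligand of EphA2, was at 25.8 and 30.4 FPKM (0.23, or 0.38 with the trends removed). Efna5 was at 8.61 and 10.9 FPKM (0.31) and Efna4 at 8.39 and 6.07 FPKM (-0.41), and with the trends removed both were below 0, at -0.12 and -0.11. The median of the 5 ephrins with a difference was 0.23, with 3 of the 5 above 0. It turned to -0.11 with the trends removed, with 2 above 0, and to -0.35 over all 8 ephrin genes with no filter on low values.

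None of the 7 Eph receptors with a difference was 2-fold different. Epha2, a receptor often abundant in epithelial tumors, was at 24.5 FPKM in shLuc against 22.5 FPKM in shTaz, and Ephb4, the venous receptor of ephrin-B2, at 17.2 and 18.7 FPKM. Both were nearly equal and led the family in level. Ephb6, whose kinase domain is inactive, was at 13.3 and 7.32 FPKM (log2 difference -0.78, or -0.51 with the trends removed) and Ephb3 at 9.29 and 5.43 FPKM (-0.68). Ephb2, a kinase-active receptor of B-type ephrins, was nearly equal at 7.25 and 7.33 FPKM. Epha4, a receptor that binds both ephrin types, was at 1.83 and 3.95 FPKM (0.80), or 0.38 with the trends removed. Ephb1 was at 0.835 and 1.36 FPKM, and reached the limit on the mean only through the shTaz column. Of the 5 EphB genes, whose products bind B-type ephrins such as ephrin-B1, 3 were above 0 and 2 below, and 1 was above the median of all genes. Ephb4 (0.11) and Ephb2 (0.014) lay so near 0 that both turned with median-ratio scaling, to -0.018 and -0.11, which left Ephb1 as the only one above 0.

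Netrin genes and the netrin receptor gene Unc5b were lower by modest amounts. Ntn1, the secreted netrin-1, was at 32.96 FPKM in shLuc and 24.1 FPKM in shTaz (log2 difference -0.44), and Unc5b, its repulsive and dependence receptor in endothelium, at 14.0 and 9.40 FPKM (-0.53). Ntn3 (2.17 and 1.42 FPKM) and Ntn5 (1.36 and 0.707 FPKM) were also lower. With the trends removed Ntn1 was at -0.30, Unc5b at -0.35, Ntn3 at -0.14 and Ntn5 at 0.06. Among netrin receptors outside the symbol rule, Neo1, or neogenin, was at 7.73 and 11.6 FPKM, and Dcc was under 0.1 FPKM in both columns. Unc50 was at 14.5 and 16.3 FPKM.

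Slits and Robos were scarce. Slit3 alone reached the limit, at 1.67 FPKM in shLuc against 0.906 FPKM in shTaz (log2 difference -0.48). Slit2 was at 0.481 and 0.0560 FPKM and Robo1, a Slit receptor, at 0.608 and 0.706 FPKM. The endothelial Robo4, which lies outside the symbol rule, was higher than these at 3.04 and 3.18 FPKM and nearly equal between the columns.

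The 24 genes under a mean of 1 FPKM are not all absent, and 3 of them reached 1 FPKM in the shLuc column: Plxna2 (1.16 and 0.468 FPKM), Sema5b (1.07 and 0.160 FPKM) and Sema3g. So did 217 of all 3774 genes under that mean. Of the 24, 19 had the lower value in the shTaz column (79.2%), whereas 1889 of all 3774 genes under that limit did so (50.1%). The 5 with the higher value were Sema6a, Plxnc1, Epha7, Epha8 and Robo1. The 24 genes had a median GC content of 50.4%, beside 49.0% for all genes under the limit. Epha1, Slit1, Robo2, Efna2 and Unc5a had a listed value of 0 for shTaz, and Epha7 and Epha8 one for shLuc. At unknown depth these values may rest on few fragments. The remaining members of the group, Sema3d, Sema5a, Plxna4, Epha3, Epha5, Slit2, Robo3, Efna3, Efnb3, Ntn4 and Unc5c, had means from 0.0261 to 0.538 FPKM.

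**Figure D2:**
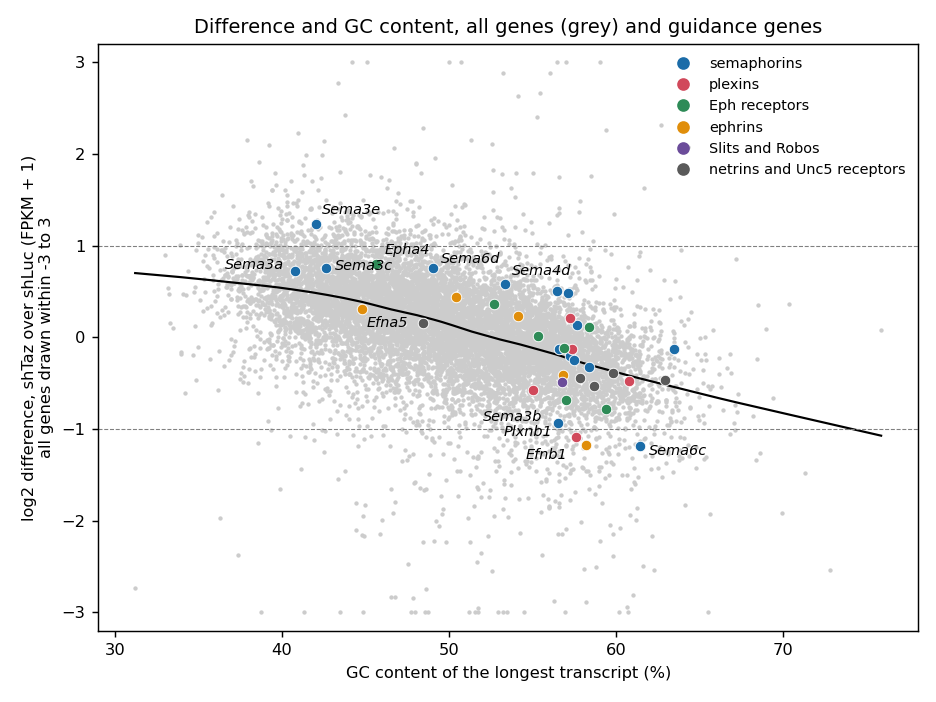
Log2 difference (shTaz over shLuc, FPKM + 1) against the GC content of the longest transcript in percent, for all genes with a value (grey, drawn within -3 to 3) and the 38 guidance genes (coloured by family); the black line is the lowess trend of all genes and dashed lines mark 2-fold. Of these 38 genes all 11 under 55% GC lie above 0, and 21 of the 27 at 55% or over lie below.

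Among the 38 guidance genes with a difference, the sign went with base composition across families. The 24 members under the limit on the mean are left out of these counts, and 19 of them were lower in the shTaz column. Under 45% GC these were Sema3d, Epha3, Epha5, Robo2 and Unc5c, while Epha7 was higher. All 4 of the 38 genes under 45% GC (Efna5, Sema3a, Sema3c and Sema3e) were higher in the shTaz column, with a median log2 difference of 0.74. In that range 2222 of 2561 genes were higher, with a median of 0.49. The 7 of the 38 from 45% to 55% GC were also all higher, with a median of 0.44. In that range 3583 of 5782 genes were higher and the median was 0.14. At 55% GC or over 21 of 27 members were lower, with a median of -0.39, against 2069 of 2723 genes and a median of -0.25. Across the 38 members Pearson's correlation of the difference with GC content was -0.73 and Spearman's -0.69. These are descriptions over genes that share the same 2 columns. Over 11066 genes Pearson's correlation was -0.47 and Spearman's -0.56. The 38 members were GC-rich, with a median of 56.97% against 50.2% for all genes. With the trends removed their median difference was 0.01, beside 0.00 for all genes.

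**Figure D3:**
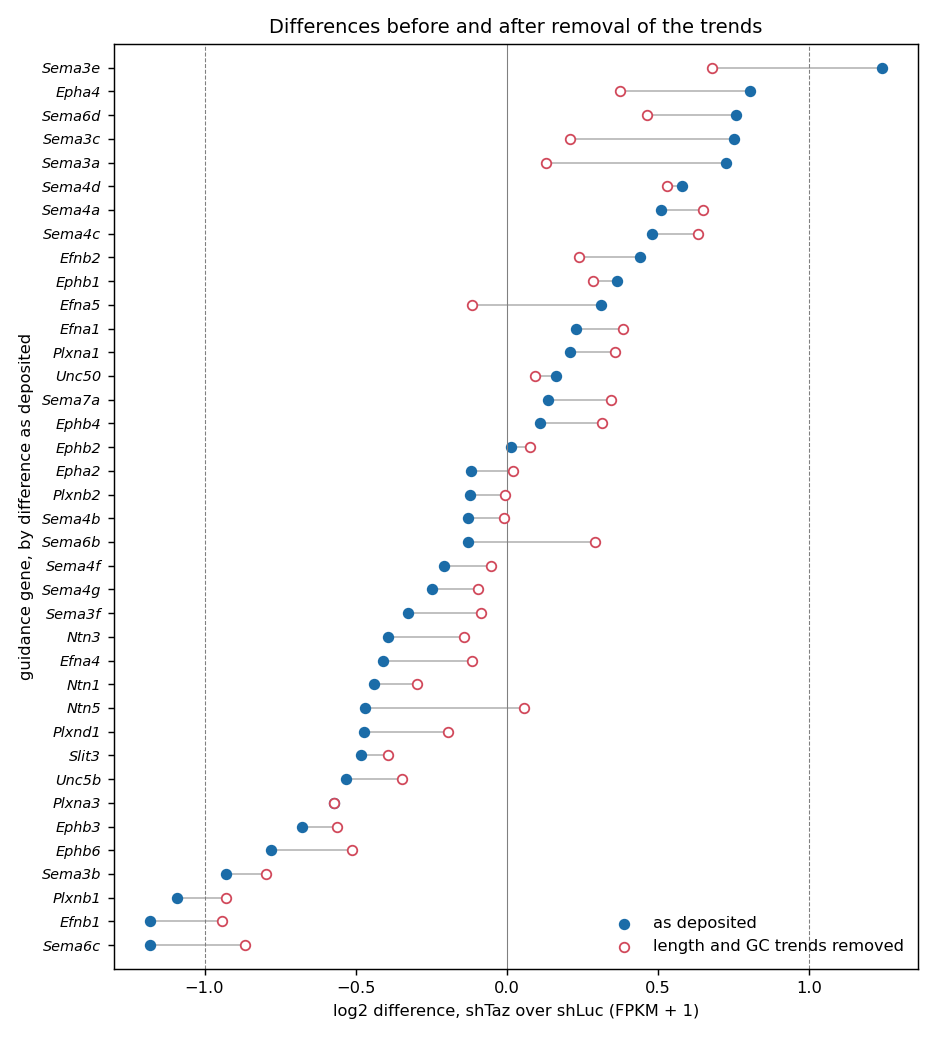
Log2 difference of each of the 38 guidance genes as deposited (filled) and with the length and GC trends removed (open), ordered by the first; dashed lines mark 2-fold. After removal no gene passes a dashed line, and Efnb1, Plxnb1, Sema6c and Sema3b remain the lowest at -0.94 to -0.80.

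The order of the lowest genes was little altered by this removal: Efnb1, Plxnb1, Sema6c and Sema3b were the 4 lowest with and without it. At the upper end Sema3e stayed first, while Sema4a, Sema4c and Sema4d took the places that Epha4, Sema6d and Sema3c had held. In all, 34 of 38 differences kept their sign, and Efna5, Epha2, Sema6b and Ntn5 did not.

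Genes that work with these cues were taken from 5 lists, chosen with earlier results of these data known. Over all 11650 genes 3.96% were at least 2-fold higher and 3.25% at least 2-fold lower. Of 10 coreceptors and netrin receptors with a difference none was 2-fold different, and the median was 0.08. Boc, a receptor-like partner of Cdon, had the lowest value there (7.61 and 4.04 FPKM), and Met, a partner of plexin B1, the highest (6.13 and 9.56 FPKM). Of 11 other ligands and modulators 2 were 2-fold lower, both glypicans, and none 2-fold higher. Gpc1, a heparan sulfate proteoglycan that binds Slits, was at 52.3 and 10.4 FPKM, a log2 difference of -2.22 and still -1.98 with the trends removed. Gpc3 was at 2.94 and 0.320 FPKM (-1.58). Flrt2, a ligand of Unc5 receptors, was at 1.29 and 3.47 FPKM (0.96, or 0.39 with the trends removed).

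Most intracellular effectors had differences above 0, as did 6792 of all 11650 genes. Of all these genes 3.96% were at least 2-fold higher. Of 19 genes acting downstream of semaphorins and plexins 14 were above 0, with a median log2 difference of 0.35, or 0.31 with the trends removed. The plexin-regulated small GTPase genes Rap1a (13.97 and 34.1 FPKM, 1.23) and Rap1b (19.5 and 44.4 FPKM, 1.15) were 2-fold higher, and were at 0.73 and 0.65 with the trends removed. Mical3, an actin-oxidizing enzyme gene, was at 0.842 and 2.66 FPKM (0.99), and at 1.04 with the trends removed. Of 15 effectors of ephrins and Eph receptors the adaptor gene Grb10 was 2-fold higher (8.23 and 19.6 FPKM, 1.16, or 0.85 with the trends removed), and the median was 0.13. Of 17 effectors of Slits, Robos and netrins none was 2-fold different, 14 were above 0 and the median was 0.33, or 0.10 with the trends removed. Dock1 (4.08 and 6.89 FPKM) and Usp33 (2.88 and 5.16 FPKM) differed most there.

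**Figure D4:**
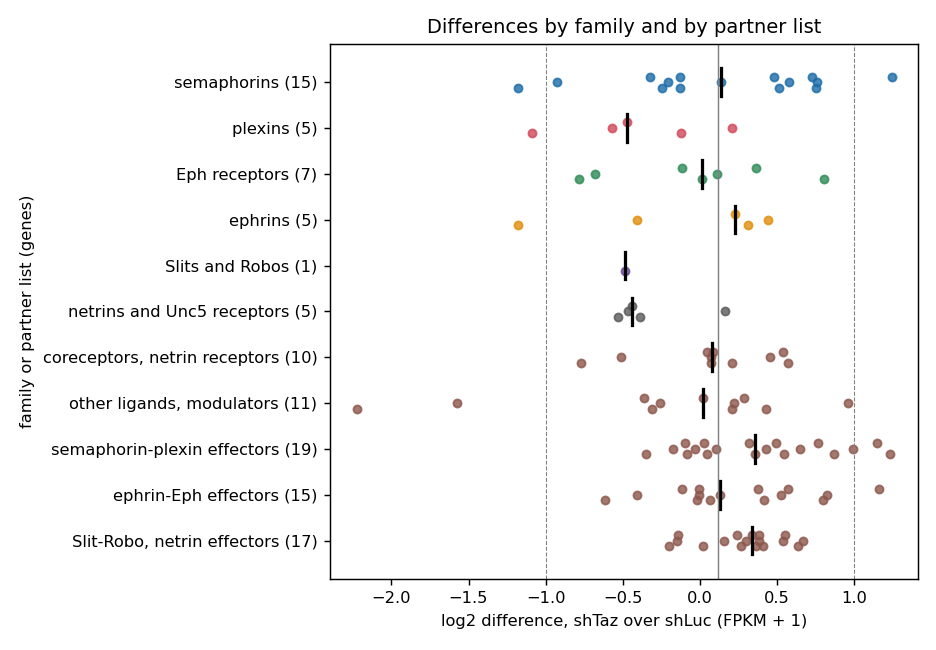
Log2 difference (shTaz over shLuc, FPKM + 1) of each gene whose mean reached 1 FPKM in the 6 guidance families (colours) and the 5 partner lists (brown), with the number of genes in brackets; black bars are medians, the grey line is the median of all genes (0.12) and dashed lines mark 2-fold. The bars of plexins (-0.47), Slit3 (-0.48) and netrins with Unc5 receptors (-0.44) lie farthest to the left, those of Eph receptors (0.01), coreceptors (0.08) and other ligands (0.02) lie just left of the grey line, and the semaphorins spread over the widest range of the 6 families.

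Markers of cell types that a subcutaneous tumor can hold also differed between the columns, and their part in the guidance values was not tested. Host and transplanted cells are both mouse, so RNA from the host and from the transplanted line cannot be told apart. The 7 fibroblast markers summed to 425 FPKM in shLuc and 168 FPKM in shTaz, with a median log2 difference of -1.76. Of the 7, 5 were at least 2-fold lower, beside 3.25% of all genes, while Pdgfra was higher (8.75 and 13.5 FPKM). The 9 endothelial markers summed to 140.2 and 98.9 FPKM, and Plvap (67.2 and 36.2 FPKM) carried most of that gap. Of the 8 with a difference 3 were above 0 and 5 below, none was 2-fold different and the median was -0.09, with Cdh5 (16.1 and 15.01 FPKM) and Pecam1 (11.53 and 10.8 FPKM) nearly equal and Erg, Emcn and Kdr higher. Of the guidance genes described above as endothelial or venous, Plxnd1 and Unc5b were lower, Efnb2 higher, and Ephb4 and Robo4 nearly equal. Which cells their RNA came from was not measured.

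The 7 pericyte and smooth muscle markers summed to 98.4 and 67.5 FPKM. Of the 6 with a difference 5 were below 0, with a median of -0.74, and Notch3 (4.42 and 0.918 FPKM) was 2-fold lower but Rgs5 (4.84 and 12.0 FPKM) 2-fold higher. The 8 macrophage markers summed to 2994 and 2606 FPKM, a gap that lay mostly in C1qa (1868 and 1470 FPKM). Of these 8, 4 were above 0 and 4 below, with a median of 0.17 and Csf1r (132 and 174 FPKM), Itgam, Mrc1 and Emr1 higher. The 5 neutrophil markers summed to 131 and 101 FPKM only because Mmp9 was lower (125 and 44.99 FPKM). The other 3 with a difference were higher, S100a8 (listed at 0, and 18.6 FPKM) and S100a9 (0.810 and 29.2 FPKM) by over 2-fold and Csf3r at 3.93 and 7.10 FPKM, and the median of the 4 was 2.39.

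The 5 skeletal muscle markers summed to 2.76 and 30.4 FPKM, with Acta1 and Myh4 listed at 0 in the shLuc column. The 5 Schwann cell markers, typical of nerves, summed to 7.42 and 4.14 FPKM. The 4 keratinocyte markers summed to 6.98 and 8.20 FPKM, with Trp63 listed at 0 in the shLuc column. Of neuroendocrine markers of small cell lung cancer, the labelled cell type, Ncam1 was at 39.8 and 43.8 FPKM, Uchl1 at 10.1 and 1.51 FPKM and Nkx2-1, a lung lineage factor, at 2.51 and 0.939 FPKM. Syp was under 0.6 FPKM in both columns, and Insm1 was at 0.169 FPKM in shLuc and listed at 0 in shTaz.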

How the data were processed

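RNA from frozen tumors was sequenced for 4 samples, 2 per group. Trimming with Trim Galore and alignment with TopHat to build mm10 are named in the submitters' processing notes, and versions, FPKM program, annotation and strand setting are not given in the sources used here. The authors deposited FPKM values in 1 column per group, each headed by a number that both samples of that group carry in the labels. Whether a column is a mean, a joint estimate or 1 library is not stated. No row of the table is 0 in both columns.

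No further scaling was applied. The columns summed to 501728 FPKM for shLuc and 427921 FPKM for shTaz. The 62 guidance genes summed to 426 and 388 FPKM, or 0.085% and 0.091% of these totals. Differences are log2(FPKM + 1), for the genes whose mean reached 1 FPKM, and the pseudocount understates changes of low genes. Among the guidance genes, Ephb1 reached that mean only through the shTaz column, and Ntn5 and Slit3 only through the shLuc column. The planned limma fit for per-sample values was not applicable. Transcript length and base composition were read from the longest GENCODE M21 transcript (95.0% of 11650 genes). The trends were removed by lowess (span 0.3, statsmodels 0.14.6), which was tested on simulated data. There the changed genes were picked at random, whatever their GC content. The simulation therefore cannot show whether the removal also takes away real differences that go with GC content. Promoter stretches are from RefSeq (GRCm38.p6). FPKM corrects neither GC content nor the share of reads that abundant RNAs take.

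Named genes were, per family, those with a 2-fold difference, the 3 with the highest mean and the largest difference in each direction, plus ligand or receptor partners. Members, lists and ligand-receptor pairs were chosen with earlier results of these data known. Any other member or partner was named with its values in view. The lists held 13, 15, 21, 17 and 19 partner genes, of which 12, 13, 19, 17 and 19 were listed. Alternatives were removal of the trends, quantile normalization, median-ratio scaling, a minimum mean of 5 FPKM, a run without that filter, and 0.1 as pseudocount.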

Additional observations from a re-analysis of the deposited data

How the results depend on the processing

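No paired analysis was possible because the values are 1 column per group and carry no replicate number, and for the same reason no replicate could be left out. Of the 38 genes, 1 was 2-fold higher and 3 were 2-fold lower. The counts were 3 and 4 with a pseudocount of 0.1 (Epha4, Sema6d and Sema3b added), 1 and 4 with median-ratio scaling or quantile normalization (Sema3b added), 0 and 1 over the 24 members that reached a mean of 5 FPKM, and 0 and 0 with the length and GC trends removed, which ended the call of Sema3e, Sema6c, Plxnb1 and Efnb1. Over all genes the shares 2-fold higher and lower were 3.96% and 3.25%, 8.55% and 4.70% with a pseudocount of 0.1, 2.66% and 4.23% with median-ratio scaling, and 2.52% and 3.91% with quantile normalization. Of the 7318 genes that reached a mean of 5 FPKM, 2.99% were 2-fold higher and 2.94% lower. With the trends removed the shares were 1.72% and 2.75%. The median of the members was -0.12 at the 5 FPKM minimum, -0.25 with median-ratio scaling, -0.20 with quantile normalization and turned to 0.0078 with the trends removed. Median-ratio scaling moved the median of all genes from 0.12 to 0.00.

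Some small family medians and genes turned sign. With no filter the semaphorin median was -0.11 and the ephrin median -0.35, and with the trends removed the ephrin median was -0.11. The Eph receptor median was -0.12 at the 5 FPKM minimum, -0.11 with median-ratio scaling and -0.090 with quantile normalization. Ephb4 turned to -0.018 with median-ratio scaling, and Ephb2 to -0.11 with it and to -0.14 with quantile normalization. With the trends removed Epha2 turned to 0.021, Efna5 to -0.12, Sema6b to 0.29 and Ntn5 to 0.058. Of the 8 ligand and receptor pairs 6 were of opposite sign with median-ratio scaling, and 4 with the trends removed. The cause of these turns was not tested. Depth is unknown, so no counting interval limits any value.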
